A study of Mus musculus with 2 samples.

Results

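The expressed Zfp genes are the mouse genes named Zfp followed by a number, which encode zinc finger proteins, and they were read in 2 mRNA sequencing libraries of CD4 T cells turned toward Th17 cells. A gene was chosen by its name and by its level, as a row with at least 500 counts summed over both libraries, and Zfp36, an RNA-decay factor of another finger type, was left out. Of 364 such rows in the deposited table, 201 reached 500 counts, 80 had 100 to 499, 49 had 1 to 99 and 34 had none. The 201 genes held 95.3% of the counts on Zfp rows. The ratio between the libraries played no part in the choice.

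The mice were wild type, and their CD4 T cells were taken from spleen and lymph nodes. Both cultures were activated through CD3 (coating antibody, 10 μg/mL) and CD28 (antibody, 5 μg/mL), carried antibodies that neutralise IFNγ and IL-4, and were collected after 24 h. In the pTh17 culture, labelled pathogenic Th17, the added cytokines were IL-6 and activin A, each at 20 ng/mL. In the npTh17 culture, labelled non-pathogenic Th17, they were IL-6 at 20 ng/mL and recombinant human TGFβ1 at 2 ng/mL. Each condition gave 1 library, so no difference has a replicate check and no test was made between the conditions. The labels do not say whether mice were pooled. The cells were cultured in a dish and were not taken from diseased tissue.

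Counts on genes with an identifier came to 30877656 in the pTh17 library and 33470161 in the npTh17 library. T cell markers were present, with Cd4 at 223 CPM (counts per 1000000, after scaling of library sizes) in the pTh17 and 230 CPM in the npTh17 library. Cd3e had 167 CPM in the pTh17 and 252 CPM in the npTh17 library, Cd3g had 73.4 CPM in pTh17 and 101 CPM in npTh17, and Thy1 had 97.6 CPM in pTh17 and 60.6 CPM in npTh17. The part of such differences in the Zfp ratios was not tested. The Th17 cytokine gene Il17f stood at 394 CPM in the pTh17 and 587 CPM in the npTh17 library. Summed markers of B cells came to 0.453 CPM in the pTh17 and 0.180 CPM in the npTh17 library, those of myeloid cells to 0.226 and 0.898 CPM, and the NK cell markers Ncr1 and Klrb1c were at 0 in both. The CD8 chain genes Cd8a and Cd8b1 together reached 1.91 CPM in the pTh17 and 1.89 CPM in the npTh17 library.

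Most proteins of this family carry C2H2 fingers, small loops in which a pair of cysteines and a pair of histidines hold a zinc ion and which read DNA when strung in a row. Many also begin with a KRAB box, a domain that recruits the corepressor Trim28 and, through it, the histone methyltransferase Setdb1 and HP1 proteins, so that bound DNA is silenced. KRAB genes are known for repressing retroelements and protecting imprinted loci, and they stand in clusters that grew by gene duplication. Members without a KRAB box are a mixed group with roles in transcription, RNA handling and protein turnover.

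The sequences that define these features are shown from 4 members with a KRAB box, the lowest member (Zfp28), the pair Zfp944 and Zfp52 of the largest gene cluster on chromosome 17, and the highest member with a KRAB box (Zfp369). Each line is the coding stretch of the KRAB A box, 81 bases from GENCODE M21 transcripts, with capitals on the codons that match the 11 fixed residues of the pattern searched.
Zfp28: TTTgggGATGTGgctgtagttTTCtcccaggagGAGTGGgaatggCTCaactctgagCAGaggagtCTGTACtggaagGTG
Zfp944: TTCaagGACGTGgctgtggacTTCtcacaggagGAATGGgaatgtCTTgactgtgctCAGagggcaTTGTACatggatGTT
Zfp52: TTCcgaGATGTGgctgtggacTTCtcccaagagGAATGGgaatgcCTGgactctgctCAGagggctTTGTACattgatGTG
Zfp369: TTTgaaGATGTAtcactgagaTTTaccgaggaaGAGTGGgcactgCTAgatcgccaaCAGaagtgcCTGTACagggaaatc
The stretches of Zfp944 and Zfp52 were identical at 85.2% of bases, and that of Zfp369 was identical to Zfp28 at 59.3%. Zfp369 kept 10 of the 11 residues and the other 3 genes kept all of them.

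A single finger with the linker that follows it spans 78 coding bases. The first such finger is shown for the lowest member and for Zfp219, the highest, which has fingers and no KRAB box, with capitals on the codons of the cysteines and histidines that hold the zinc.
Zfp28: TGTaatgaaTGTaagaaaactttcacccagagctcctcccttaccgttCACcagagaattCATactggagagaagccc
Zfp219: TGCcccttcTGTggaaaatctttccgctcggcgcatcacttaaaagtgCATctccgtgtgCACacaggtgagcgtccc
The whole stretches, with the zinc-holding codons and the linker included, were identical at 47.4% of bases. Among such stretches of Zfp28, Zfp944, Zfp52, Zfp369 and Zfp219, pairs ranged from 43.59% (Zfp944 and Zfp219) to 67.95% (Zfp28 and Zfp944). Over the 201 members the median number of fingers found by pattern was 11, the most was 37, in Zfp142, and 2 members, Zfp330 and Zfp703, had none of this spacing. A KRAB pattern, taken as at least 9 of the 11 residues, was found in 101 members and not in 100. Only 7 members scored 4 to 8, so few lay near the limit. The same pattern was found in 304 of the 21869 genes of the deposited table that had a coding sequence to translate.

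The family was modestly lower in the pTh17 library. Together the 201 members had 7820 CPM in the pTh17 and 8439 CPM in the npTh17 library. They made up 0.783% of the pTh17 counts and 0.843% of the npTh17 counts. The median log2 ratio of pTh17 over npTh17 was −0.13, against −0.0077 over all 8729 named genes with at least 500 counts, and 139 members lay below 0 and 62 above. Among the other 8528 genes, 50.8% lay below 0, and among the members 69.2%. The ratios were small. By counts no member differed by 2-fold in either direction, where the background over the 8729 genes was 0.848% higher and 0.894% lower in pTh17. By FPKM 1 member, Zfp28, was past 2-fold lower, at −1.06. At 1.5-fold, 13 members were lower in pTh17, or 6.47%, beside 3.68% of all genes. In the other direction, 3 members were at least 1.5-fold higher, or 1.49%, beside 4.63% of all genes.

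**Figure D1:**
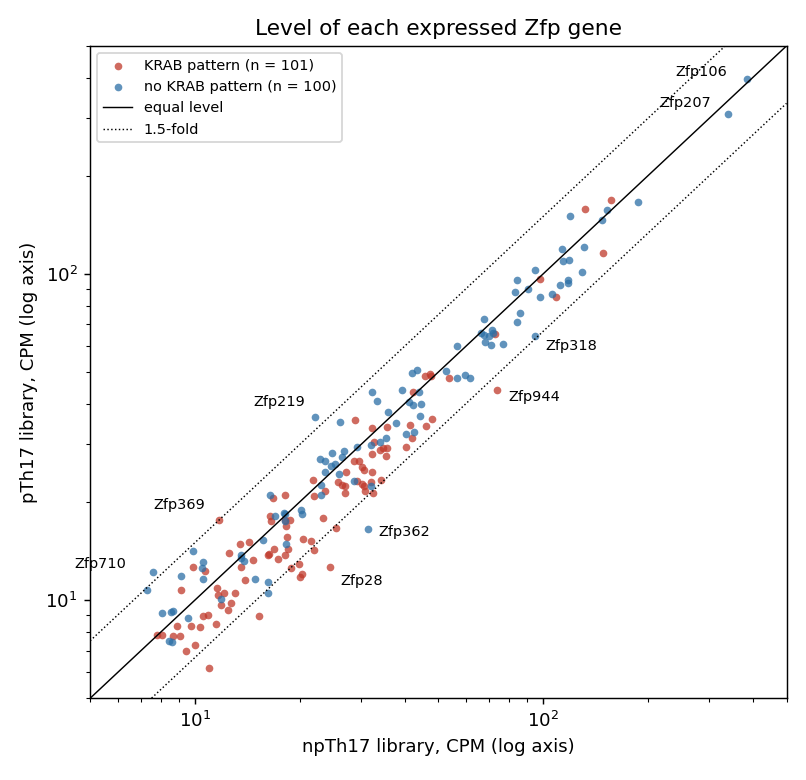
Each point is 1 of the 201 members, with its level in CPM in the pTh17 library on the vertical axis and in the npTh17 library on the horizontal axis, both logarithmic, coloured by the KRAB pattern. Most points with a KRAB pattern lie under the line of equal level, and 16 points in all lie past the dotted 1.5-fold lines.

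Members with a KRAB pattern accounted for most of the lower values. Of the 101, 80 were below 0, with a median log2 ratio of −0.24. In pTh17, 11 were at least 1.5-fold lower, or 10.9%, and 1 was at least 1.5-fold higher, or 0.990%. Over all 8729 genes with at least 500 counts these shares were 3.68% and 4.63%. Of the 100 members without the pattern, 59 were below 0, with a median of −0.053, and 2, or 2%, passed 1.5-fold in each direction. Genes with the pattern but another kind of name, which the choice by name had left out, had a median of −0.32. Of these 34, 27 were below 0 and 9, or 26.5%, were at least 1.5-fold lower. The difference between members with and without the pattern was not tested, as there was 1 library per condition.

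**Figure D2:**
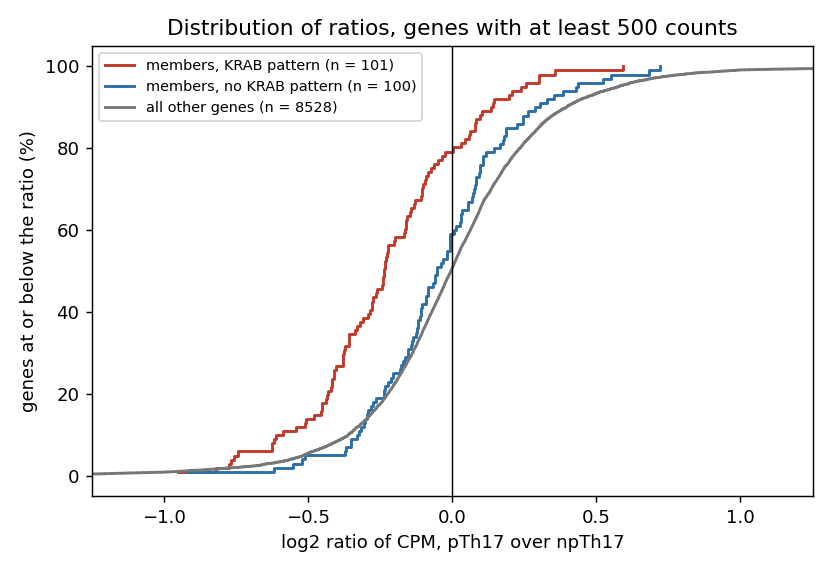
The curves give the share of genes, in percent, at or below each log2 ratio of CPM (pTh17 over npTh17) for the 101 members with a KRAB pattern, the 100 without it and the 8528 other genes with at least 500 counts. The curve with the pattern runs left of both others over most of its length and passes 0 at 79.2%, while the curve without it passes 0 at 59.0% and the other genes at 50.8%.

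Base composition moved with this difference. The median GC content of the transcripts was 40.7% with the KRAB pattern and 51.1% without it, beside 49.7% for the 8729 genes. Of the members at or below the median GC, 75 with the pattern had a median log2 ratio of −0.26 and 26 without it had −0.15. Above the median GC, 26 with the pattern had −0.14 and 74 without it had −0.0082. When a trend of the ratio on transcript length and GC content, drawn over all genes with at least 500 counts, was subtracted, the medians were −0.15 with the pattern and −0.030 without it. Then 75 of 101 and 57 of 100 members were below 0. After this correction 8 members were at least 1.5-fold lower in pTh17, or 3.98%, beside 3.70% of all genes, which is a share near the background. Of these 8, 6 had the KRAB pattern, or 5.94% of the 101. The part that base composition had in the ratios was not tested further.

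**Figure D3:**
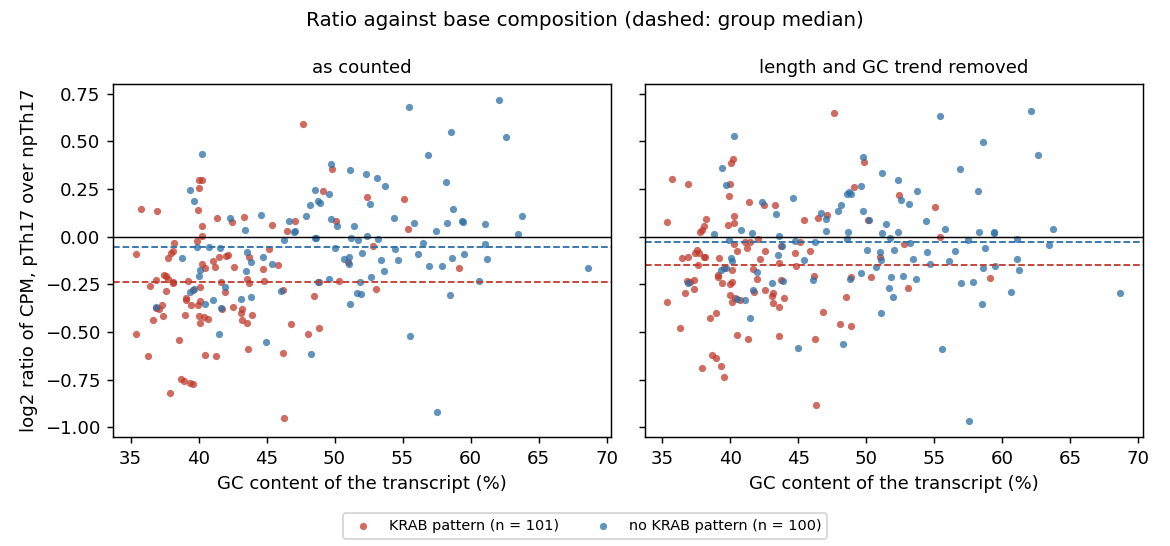
Each point is a member, with the GC content of its transcript in percent on the horizontal axis and its log2 ratio of CPM (pTh17 over npTh17) on the vertical axis, as counted on the left and with the length and GC trend removed on the right. The dashed group medians are −0.24 and −0.053 on the left and −0.15 and −0.030 on the right, with the KRAB pattern lower in both panels.

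The number of fingers gave a less regular picture. Members with 0 to 5 fingers had a median log2 ratio of −0.054, those with 6 to 10 had −0.11, those with 11 to 15 had −0.23 and those with 16 or more had −0.17. Among members without the KRAB pattern, the medians were −0.057 with fewer than 11 fingers and 0.0021 with 11 or more. With the pattern they were −0.16 and −0.24. With the length and GC trend removed the medians were −0.039 and −0.025 without the pattern, and −0.092 and −0.15 with it. The part of finger number in the ratios was not tested. The level of the genes made little difference to the median, at −0.13 for the 100 members above the median CPM and −0.13 for the 101 others, but 11 of the 13 members past 1.5-fold lower were in the weaker part, where counting error is larger.

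Ratios also differed by place on the chromosome. Members within 1 Mb of each other on mm10 formed 10 runs of at least 5 members, which held 78 of the 201. The largest run, on chromosome 17 from 21008903 to 23564238, held 15 members, 14 of them with the KRAB pattern, and all 15 were below 0, with a median log2 ratio of −0.38. It was the only 1 of the 10 runs in which every member lay below 0. Zfp994 (192 counts in pTh17 and 367 in npTh17) was lowest in it at −0.82 (95% counting interval −1.08 to −0.57). Zfp944 followed at −0.75 (−0.84 to −0.65), with 1361 counts in pTh17 and 2466 in npTh17. Zfp51 stood at −0.54, with 724 counts in pTh17 and 1141 in npTh17. The most abundant genes of the run, Zfp52 and Zfp53, had near-equal ratios by counts, both at −0.36. By FPKM Zfp52 was at −0.44 and Zfp53 at −0.52, each outside its counting interval. Zfp52 had 3584 counts in pTh17 and 4972 in npTh17, and Zfp53 had 2631 and 3648. At the other end of the run were Zfp760 at −0.035 (−0.29 to 0.22) and Zfp213, the member without the pattern, at −0.093 (−0.26 to 0.069). With the length and GC trend removed the run's median was −0.25, with 14 of 15 below 0.

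Other runs were less uniform. On chromosome 13, from 67312998 to 67729173, 8 of 9 members were below 0, with a median of −0.32, and Zfp953 was the member above 0. On chromosome 7, from 29768552 to 30169750, 9 of 12 were below 0, with a median of −0.27, from Zfp27 at −0.62 to Zfp382 at 0.24. A run of 7 on chromosome 7, from 127233061 to 127885996, held 2 members with the KRAB pattern and had a median of 0.056. The 87 members with the pattern outside the chromosome 17 run had a median of −0.22, with 66 below 0, and a median of −0.11 with the trend removed.

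**Figure D4:**
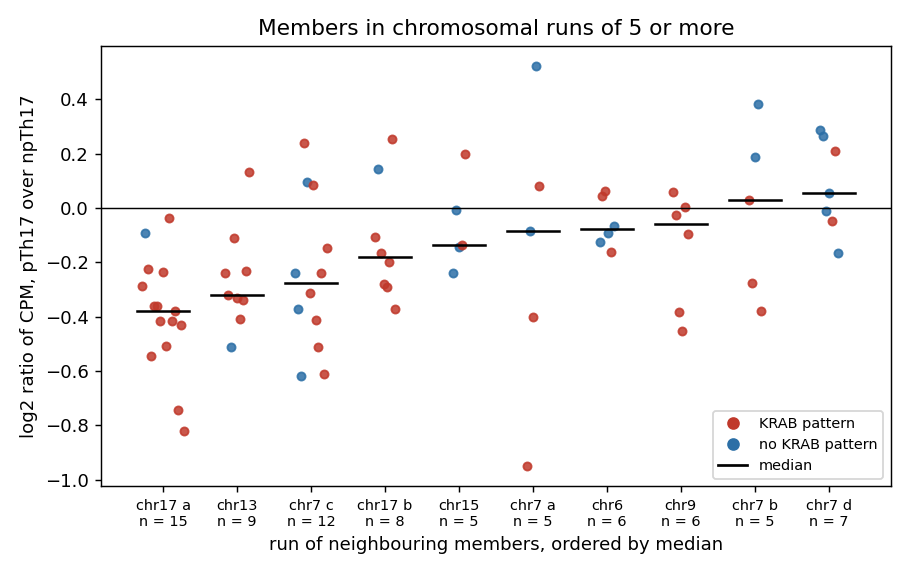
Each column is a run of at least 5 neighbouring members, named by chromosome with a letter where a chromosome has several (in order along it), each point is a member at its log2 ratio of CPM (pTh17 over npTh17), and the bar is the median of the run. All 15 points of the first run on chromosome 17 lie below 0, while the last column on the right, a run on chromosome 7, is centred near 0.

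Among single members, the lowest was Zfp28, a KRAB gene on chromosome 7 (ENSMUSG00000062861, 6383295 to 6396915, plus strand). It had 390 counts in the pTh17 and 816 in the npTh17 library, or 12.6 CPM and 24.4 CPM, which is 1.93-fold lower in pTh17, with a log2 ratio of −0.95 (−1.13 to −0.78). Zfp362 on chromosome 4, which has no KRAB pattern, had 16.6 CPM in the pTh17 and 31.4 CPM in the npTh17 library and a log2 ratio of −0.92 (−1.08 to −0.77). With the trend removed Zfp28 stood at −0.88 and Zfp362 at −0.97, so Zfp362 was then the lower of the pair. Apart from members of the chromosome 17 run, the next lowest were 3 genes with the KRAB pattern. Zfp825 had 276 counts in the pTh17 and 511 in the npTh17 library and stood at −0.77 (−0.99 to −0.56). Zfp959 had 364 counts in pTh17 and 671 in npTh17 and was also at −0.77 (−0.96 to −0.58). Zfp182 had 371 counts in pTh17 and 678 in npTh17 and was at −0.76 (−0.94 to −0.57). Zfp808, at −0.63, shared 25.7% of its 75-base windows with other genes, with Zfp934 sharing the most, and the value of Zfp808 is uncertain. Zfp157, Zfp386, Zfp84 and Zfp868 had ratios of −0.63, −0.62, −0.61 and −0.59, and with the trend removed they stood at −0.54, −0.52, −0.54 and −0.52, short of 1.5-fold. Zfp808 at −0.48 and Zfp27 at −0.57 were also short of it with the trend removed. By FPKM, Zfp386 was at −0.35 and was the only 1 of the 13 short of 1.5-fold.

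At the other end stood Zfp219, a transcription factor gene on chromosome 14 (ENSMUSG00000049295), with 1125 counts in the pTh17 and 738 in the npTh17 library. At 36.4 CPM in the pTh17 and 22.1 CPM in the npTh17 library it was 1.65-fold higher in pTh17, with a log2 ratio of 0.72 (0.58 to 0.86). Its exons overlap Arhgef40 and Tmem253 on the opposite strand, and the labels describe no strand-marking step, so reads of these genes cannot be told apart. Zfp710 had 378 counts in the pTh17 and 254 in the npTh17 library and a log2 ratio of 0.68 (0.45 to 0.92). Zfp369 was the highest member with a KRAB pattern, with 546 counts in pTh17 and 391 in npTh17, at 0.59 (0.40 to 0.78). By FPKM it was at 0.54, short of 1.5-fold. Close below 1.5-fold were Zfp341 at 0.55 (0.31 to 0.80) and Zfp787 at 0.52 (0.32 to 0.74). Zfp597 was at 0.44 (0.31 to 0.57), but 22.3% of its windows are shared with other genes and its exons overlap Naa60 and Zfp174 on the opposite strand. Zfp511 was at 0.35 (0.19 to 0.52) and Zfp553 at 0.29 (0.17 to 0.41), and both also overlap a gene on the opposite strand. Ranked by the interval bound nearest to no difference, of the 12 highest members 3 carried the KRAB pattern, namely Zfp369, Zfp850 and Zfp871, and of the 12 lowest 10 did.

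**Figure D5:**
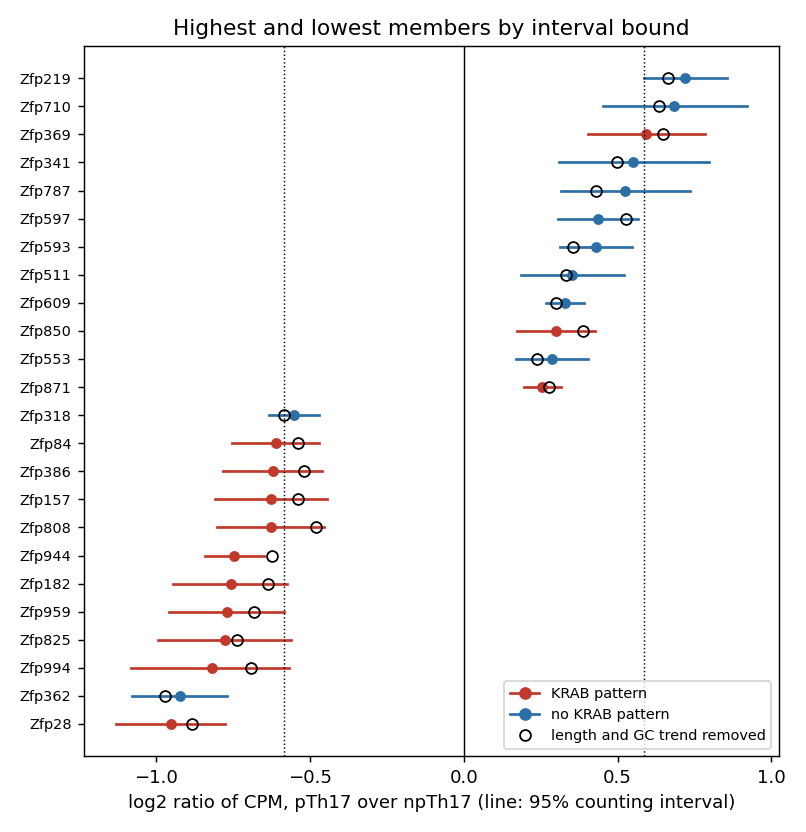
The 12 highest and the 12 lowest members, ranked by the interval bound nearest to no difference, are shown by log2 ratio of CPM (pTh17 over npTh17), with lines for the 95% counting interval and open circles for the value with the length and GC trend removed. The lowest rows, Zfp28 and Zfp362, have open circles at −0.88 and −0.97, and none of the 24 open circles crosses 0.

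Levels between genes were compared as FPKM, which is relative to transcript length. The mean over both libraries ran from 0.774 to 118 FPKM, with a median of 6.74 FPKM, while the other genes with at least 500 counts had a median of 15.5 FPKM. Zfp207 stood far above the rest, with 113 FPKM in the pTh17 and 122 FPKM in the npTh17 library. It was followed by Zfp106, at 38.7 FPKM in pTh17 and 37.6 FPKM in npTh17, and Zfp52, at 32.1 FPKM in pTh17 and 43.6 FPKM in npTh17. By counts, the 10 most abundant members held 23.3% of the total. Of these, Zfp609, Zfp871 and Zfp445 were higher in pTh17 beyond their counting intervals, Zfp207, Zfp638, Zfp62 and Zfp52 were lower, and Zfp106, Zfp706 and Zfp91 had intervals that held 0. With the length and GC trend removed Zfp62 turned to 0.014, Zfp207 stood at −0.049 and Zfp706 at 0.12.

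Of 9 listed factors that bind promoters of many genes, all were members and 6 were below 0, with a median of −0.11. Of the 9, 1 was at least 1.5-fold higher, or 11.1% beside 4.63% of all genes, and that was Zfp219, the highest of all members. Zfp281, which binds GC-rich elements, had 1888 counts in the pTh17 and 2556 in the npTh17 library and a log2 ratio of −0.32 (−0.41 to −0.24), while its relative Zfp148 had 3390 and 3804 counts and stood at −0.054 (−0.12 to 0.013). Zfp143, known from promoters and chromatin loops, was at −0.11 (−0.23 to 0.023). Zfp410, whose known main target is the remodeller gene Chd4, was at −0.22 (−0.31 to −0.13), and Chd4 itself was at 0.15 (0.13 to 0.17). The other listed factors were Zfp740 at −0.11, Zfp384 at −0.12, Zfp263 at 0.22 (0.12 to 0.33) and Zfp202 at 0.18 (−0.066 to 0.43).

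Among 8 genes with known roles in lymphocytes or cytokine signalling, 6 were members and 3 of them were above 0. Zfp318, needed for IgD expression in B cells, was lowest, with 1997 counts in the pTh17 and 3164 in the npTh17 library, at −0.55 (−0.63 to −0.47). Zfp341, whose human counterpart drives transcription of the Th17 signal transducer STAT3, had 331 counts in the pTh17 and 244 in the npTh17 library, or 10.7 and 7.30 CPM. Its exons overlap a gene on the opposite strand. Zfp609, a partner of the cohesin loader, was higher in pTh17 at 0.33 (0.27 to 0.39), on 4645 counts in pTh17 and 3998 in npTh17. Zfp335, needed for T cell maturation, was at 0.081 (−0.012 to 0.17) and Zfp91, a ubiquitin ligase of the non-canonical NF-κB pathway, at −0.0083 (−0.067 to 0.050). Both intervals held 0. Zfp131 completed the list at −0.28 (−0.35 to −0.21).

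Of 16 listed factors of repressor complexes, 11 were members, 9 of these were below 0 and none was past 1.5-fold. Zfp451, a SUMO ligase, was at −0.33 (−0.40 to −0.26) and Zfp592, which acts with Zfp687, at −0.30 (−0.37 to −0.23). Zfp687 itself was at −0.032 (−0.18 to 0.12). Zfp644, a partner of the methyltransferases G9a and GLP, was at −0.060 and Zfp217 at −0.018, both with intervals that held 0. So did the intervals of Zfp652 at −0.017, Zfp827 at −0.062, Zfp746 at −0.091 and Zfp512 at 0.054. By FPKM, Zfp827 was at −0.35, outside its interval. Zfp703 was at −0.23 (−0.45 to −0.018) and Zfp507 at 0.11 (0.023 to 0.19).

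Of 14 listed proteins of RNA handling, ribosomes and mitosis, 12 were members, with 6 above and 6 below 0 and a median of −0.0016. Zfp207, a spindle assembly factor, was at −0.14 (−0.17 to −0.10), with 9557 counts in pTh17 and 11343 in npTh17. Zfp593, a factor of the large ribosomal subunit, was the highest at 0.43 (0.31 to 0.55), but 58.8% of its windows are shared with other genes. E130218I03Rik, which shares the most windows with Zfp593, overlaps it on the opposite strand. Zfp622, of the same pathway, was at −0.0080 (−0.096 to 0.079). Zfp598, the ubiquitin ligase that detects collided ribosomes, was at 0.077 (0.011 to 0.14). Zfp830 was also higher at 0.25 (0.10 to 0.39), while Zfp277 at −0.26 (−0.38 to −0.15), Zfp326 at −0.18 (−0.30 to −0.055) and Zfp330 at −0.14 (−0.23 to −0.052) were lower.

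Of 10 listed KRAB genes with known targets, 6 were members, with 4 below 0 and a median of −0.068. Zfp445, which maintains imprints, had 5222 counts in the pTh17 and 5249 in the npTh17 library and was at 0.10 (0.049 to 0.16). Zfp568, which silences a placental Igf2 transcript, was at 0.083 (−0.020 to 0.19), and Zfp809, which silences retroviruses, at −0.062 (−0.18 to 0.058). Zfp932 was at −0.36 (−0.49 to −0.23), with 32.6% of its windows shared with other genes. Zfp961 at −0.10 and Zfp120 at −0.074 had intervals that held 0.

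The partners through which KRAB proteins silence DNA were, as a list, not lower. Of 18 listed genes in the table, 10 were above and 8 below 0, with a median of 0.041, and by counts none was past 1.5-fold. Trim28, the corepressor that binds the KRAB box, had 16409 counts in the pTh17 and 19425 in the npTh17 library and a log2 ratio of −0.13 (−0.16 to −0.10). Setdb1 was at 0.15 (0.089 to 0.21). The HP1 genes were higher in pTh17, with Cbx5 at 0.56 (0.52 to 0.60), Cbx1 at 0.46 (0.40 to 0.53) and Cbx3 at 0.33 (0.28 to 0.37). Uhrf1 was also higher, at 0.38 (0.35 to 0.41), while Chd3 was the lowest of the list at −0.19 (−0.23 to −0.15). Cbx5 was at 0.30 by FPKM and at 0.59, past 1.5-fold, with the trend removed. The Zbtb genes and the Zscan and Zkscan genes had medians closer to 0 than the Zfp members as a whole. Medians were 0.056 for 30 Zbtb genes and −0.068 for 14 Zscan and Zkscan genes, beside −0.053 for the 100 members without the KRAB pattern. The 34 genes with the KRAB pattern but another kind of name were further from 0, at −0.32. None of these differences was tested.

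Promoters are shown for 4 members at the ends of the range or in the chromosome 17 run, as the 250 bases before the RefSeq start (GRCm38.p6, the assembly of mm10). In Zfp28 the GENCODE start lies inside this window, and Zfp219 has a further RefSeq start downstream. Capitals mark matches on either strand to the 6 motifs searched. These were the Foxo letters GTAAACA, the cyclic AMP element TGACGTCA, the ETS letters CCGGAAGT, the CCAAT box, the TATA box spelled TATAAA and the SMAD palindrome GTCTAGAC.
Zfp28, chr7:6383068-6383317, plus strand: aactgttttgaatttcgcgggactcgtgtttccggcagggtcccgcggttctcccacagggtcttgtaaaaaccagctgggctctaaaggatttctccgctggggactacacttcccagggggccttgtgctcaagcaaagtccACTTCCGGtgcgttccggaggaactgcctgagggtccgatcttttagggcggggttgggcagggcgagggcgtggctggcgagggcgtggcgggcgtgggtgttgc
Zfp52, chr17:21535289-21535538, plus strand: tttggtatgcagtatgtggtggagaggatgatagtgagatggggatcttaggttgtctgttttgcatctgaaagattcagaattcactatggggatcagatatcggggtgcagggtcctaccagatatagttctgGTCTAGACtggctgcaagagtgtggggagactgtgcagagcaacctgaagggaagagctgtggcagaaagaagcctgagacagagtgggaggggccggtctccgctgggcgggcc
Zfp219, chr14:52020734-52020983, minus strand: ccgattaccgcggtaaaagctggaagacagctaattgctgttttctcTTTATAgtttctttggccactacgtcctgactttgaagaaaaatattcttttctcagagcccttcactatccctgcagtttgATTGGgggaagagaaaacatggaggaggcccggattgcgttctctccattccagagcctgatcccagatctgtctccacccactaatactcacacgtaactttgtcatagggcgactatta
Zfp710, chr7:80024564-80024813, plus strand: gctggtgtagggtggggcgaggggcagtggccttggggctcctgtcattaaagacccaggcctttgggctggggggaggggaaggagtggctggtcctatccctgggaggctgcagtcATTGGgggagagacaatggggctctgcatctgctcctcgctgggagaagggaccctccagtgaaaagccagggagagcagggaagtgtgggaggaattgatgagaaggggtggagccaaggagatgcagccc
The table held 205 windows for 166 of the 201 members. In all it held 32851 windows for 27025 genes, which, unlike the members, were not chosen by level. Median GC content was 55.6% in member windows and 52.4% in all windows. The part of level and GC content in the motif shares was not tested. The ETS letters stood in 18 of the 205 windows, or 8.78%, against 2.88% of all 32851 windows, and the CCAAT letters in 45.9% against 33.8%. The cyclic AMP element was in 3.90% of member windows, against 1.55% of all. TATAAA was found in 6.83% of member windows and 12.4% of all. The Foxo letters were in none of the 205 windows and in 3.17% of all, and the SMAD palindrome was in 1, that of Zfp52, which is 0.488% of member windows against 0.167% of all. A match describes letters only and is not a binding site.

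The limit of 500 counts was soft at its edge. Just inside it, Zfp560 had 241 counts in the pTh17 and 260 in the npTh17 library, Zfp760 had 242 and 268, and Zfp771 had 232 and 281. Just outside, Zfp882 had 263 in the pTh17 and 231 in the npTh17 library, Zfp689 had 274 and 216, and Zfp995 had 208 and 281. Only 10 members had fewer than 250 counts in a library. Counts and FPKM gave log2 ratios that differed by more than 0.3 for 6 members. Zfp560, for example, was at 0.0025 by counts and 0.54 by FPKM, Zfp846 was at −0.096 by counts and −0.66 by FPKM, and Zfp800 was at −0.29 by counts and 0.097 by FPKM.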

How the data were processed

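Per the file headers, the authors deposited whole-number counts and FPKM values (relative to transcript length and depth) for each gene and library. Reads were placed on mm10 per the submitters' processing notes, and which aligner, counter and annotation were used is not given in the sources used here. Rows without a gene identifier held 2.50% of pTh17 and 2.90% of npTh17 counts and were left out.

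Library sizes were scaled by TMM (edgeR 4.0.16), and the log2 ratio of CPM used a prior count of 1. Intervals are exact Clopper-Pearson 95% intervals of the share of counts in the pTh17 library and cover counting error only. Counts of 2 were 3.42 times as frequent as counts of 1 in the pTh17 and 4.37 times in the npTh17 library, so the intervals can be too narrow. With 1 library per condition no p-value was computed. The ratio and interval calculations were tested on simulated counts drawn with counting error only. Such a test cannot show that the intervals are wide enough for the deposited counts.

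Positions, length, GC content and translated sequences came from GENCODE M21 (GRCm38), in which all 201 members were found. A finger is a match to the C2H2 spacing. Windows of 75 bases found in a transcript of another gene were counted as shared, which was at least 20% in 22 members. The naming rule took the 12 highest and 12 lowest members by the interval bound nearest to no difference, the 10 with the highest mean CPM, members of 5 role lists, the 3 rows on each side of 500 counts, and Trim28, Setdb1 and the corepressor genes with the largest ratios. Others, including Chd3, Chd4, Zfp27, Zfp868 and members of the runs, were named after their values were seen. Members and lists were chosen with earlier results of these data known. DESeq2 1.42.0 size factors, unscaled totals, a prior count of 5, log2 FPKM with 0.1 added, other count limits, a lowess trend on length and GC, and leaving out overlapping genes were alternatives.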

Additional observations from a re-analysis of the deposited data

How the results depend on the processing

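The median log2 ratio of the members was −0.13 with DESeq2 size factors, and every alternative tried kept it below 0. It was smallest in size with the length and GC trend removed, at −0.087. Then 65.7% of the members were below 0, beside 51.4% of all genes with at least 500 counts. The median with the KRAB pattern also stayed below 0 under all alternatives run. The number of members at least 1.5-fold higher in pTh17 was 3, and it was 6 with a limit of 200 summed counts (259 genes), 1 with 1000 (146 genes) and 17 with no limit beyond 1 count in each library (318 genes). The number at least 1.5-fold lower was 13, and it was 8 with the length and GC trend removed, of which 7 were among the 13, 21 with a limit of 200 counts and 35 with no limit. The count limits change how many genes are counted, and otherwise the cause was not tested. Shares of all genes past 1.5-fold at these other limits are not given here. The member counts at those limits therefore have no background beside them. Requiring all 11 residues of the KRAB pattern, or 7, was chosen after seeing the data, as was leaving out members with 20% or more shared windows. Of the 65 named members, 8 moved outside their counting interval with the trend removed and 5 with FPKM, and no member past 1.5-fold changed sign. No paired analysis was possible because each condition has 1 library. Depth limits single genes near 500 counts most, such as Zfp760 with an interval of −0.29 to 0.22.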
